A study of Drosophila melanogaster with 23 samples.

Results

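Mitochondrial ribosomal protein genes were taken as all annotated protein-coding genes of Drosophila melanogaster whose symbol starts with mRpL or mRpS. This gave 73 genes among 13968 protein-coding genes on the chromosomes, of which 47 are named for the large and 26 for the small ribosomal subunit. A promoter was called bound in a peak list when a region overlapped, by at least 1 bp, the 200 bp on either side of an annotated transcription start site (TSS) of the gene. The promoters of the other 13895 protein-coding genes were measured in the same way and served as the background.

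The mitochondrial ribosome translates the few proteins that mitochondrial DNA still encodes, most of them core subunits of the respiratory chain. In animals all its proteins are encoded in the nucleus, translated in the cytoplasm and imported, so their genes are transcribed in nearly every cell from promoters of the housekeeping type. In Drosophila such promoters are often arranged in divergent pairs and often carry the DNA replication-related element, the binding site of DREF, or Motif 1, the binding site of M1BP.

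The lists come from chromatin immunoprecipitation and sequencing (ChIP-seq) of Mzfp1, the product of CG1603, a protein with MADF domains and C2H2 zinc fingers that binds the chromatin protein CP190. Whole embryos and whole adults of 2 to 3 days were used, and there were 23 libraries, of which 5 were controls. Embryos of y1w1118 were precipitated with anti-Mzfp1 raised in rat or in rabbit, with 1 library each, and untagged y1w1118 adults with anti-Mzfp1. Adults with a tagged transgene had the genotypes U:Mzfp1WT/TM6,Tb (wt-HA), U:Mzfp1deltaM2/TM6,Tb (ΔM2-HA, without the second MADF domain), U:Mzfp1delta42/TM6,Tb (Δ42-HA, without the CP190-binding region) and U:Mzfp1deltaZf/TM6,Tb (ΔZF-HA, without part of the C-terminal zinc finger cluster). All tagged proteins were driven by the ubiquitous Ubi-p63E promoter from the same landing site, and by the study's text the flies were CG1603attP/CyO, with CG1603 deleted on 1 chromosome and 1 endogenous copy left on the balancer CyO. Anti-Mzfp1 could therefore precipitate the endogenous and the tagged protein together, and anti-HA the tagged protein alone. By the study's text, the region missing from Δ42-HA lies within the stretch used to raise anti-Mzfp1. How well this antibody precipitates Δ42-HA was not tested here. The study's immunoblots showed ΔM2-HA as more abundant and Δ42-HA as less abundant than wt-HA. The study also reports several times more Mzfp1 in wt-HA flies than in y1w1118. The part of these levels in the binding was not tested.

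Each of the 10 groups was represented by 1 peak list. The 8 adult lists each joined 2 libraries and held between 574 and 6245 regions, while 788 regions were listed in embryos for rat and 117 for rabbit anti-Mzfp1. Since no list per replicate was used, values could not be set against a spread between replicates, no test was run, and the 95% Wilson intervals given here cover counting error over genes only. The number of reads behind the lists is unknown. Which control library each adult list was called against is not given in the sources used here, so adult lists may share controls. The lists hold no expression values, so the labelled stage was not checked against marker genes.

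Sequences are given for the promoters on which the binding results turn. They are the summits of the most strongly enriched promoters, mRpS7 and mRpS30, and of mRpS14, a promoter shared by a pair of genes 21 bp apart. The summit of mRpL17 is added, since it holds a match to a matrix built from other regions. Each run is 101 bases around the summit in y1w1118 adults, read 5′ to 3′ on the strand of the gene from the Release 6 (dm6) genome of RefSeq. Capitals mark a match to a 15 bp matrix, built from y1w1118 regions away from these genes and seeded by the word TATCGATA, or the word GGTCACAC, the core of Motif 1.
mRpS7 (chr2L:10386234-10386334): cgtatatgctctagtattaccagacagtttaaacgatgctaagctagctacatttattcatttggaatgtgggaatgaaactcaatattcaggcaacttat
mRpS30 (chrX:15785994-15786094): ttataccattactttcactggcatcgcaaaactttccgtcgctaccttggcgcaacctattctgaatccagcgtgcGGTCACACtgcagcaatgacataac
mRpS14 (chrX:19480194-19480294): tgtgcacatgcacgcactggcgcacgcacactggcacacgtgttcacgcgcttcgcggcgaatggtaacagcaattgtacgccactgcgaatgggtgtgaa
mRpL17 (chr3L:264364-264464): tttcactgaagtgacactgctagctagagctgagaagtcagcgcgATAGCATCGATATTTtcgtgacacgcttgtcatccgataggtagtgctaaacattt

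The 2 summits with the highest enrichment held no matrix match within 50 bp, and mRpS30 held the Motif 1 core. The summit of mRpS14 held neither. A match describes these letters only.

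Mzfp1 was found more often at the promoters of mitochondrial ribosomal protein genes than at those of other genes in all 6 lists made with anti-Mzfp1. In y1w1118 adults 25 of the 73 promoters were bound (34.2%, 95% Wilson interval 24.4 to 45.7) against 14.6% of the other protein-coding genes. In adults carrying wt-HA 19 were bound by anti-Mzfp1 (26.0%, 17.3 to 37.1) against 14.5%. The count was also 19 with ΔM2-HA, where the background was 12.8%, and it was 27 with Δ42-HA (37.0%, 26.8 to 48.5), where the background was 16.6%. In each of the 4 adult lists the background share lay below the interval of the mitochondrial ribosomal protein genes. Among genes with another start site close by, however, the background rose to 26.1% in y1w1118 and lay inside the interval of 35.2% (23.8 to 48.5).

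Embryos gave the same order at lower counts. The rat antibody found 10 promoters (13.7%, 7.61 to 23.4) against 5.86% of other genes. The rabbit antibody, with the shortest list, found 2 promoters (2.74%, 0.755 to 9.45) against 0.712%. All 10 promoters of the rat list were among the 25 of y1w1118 adults, and the 2 of the rabbit list, mRpS7 and mRpS30, were among them too. Of the other genes in these lists, 90.7% and 93.9% were also bound in y1w1118, so the overlap was near the general one.

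The tagged proteins alone, seen with anti-HA, were found at shares whose intervals included the background. The wt-HA list, the shortest of the adult lists, held 5 (6.85%, 2.96 to 15.1) against 3.57% of other genes. The ΔM2-HA list held 12 (16.4%, 9.66 to 26.6) against 16.5%, and the Δ42-HA list 9 (12.3%, 6.62 to 21.8) against 14.2%. The ΔZF-HA list held 1 promoter (1.37%, 0.242 to 7.36) against 5.08%. The study itself described no true peak and no significant signal for ΔZF-HA, although its list holds 6218 regions. Regions of that list are counted here by the same rule and are not taken as binding. In all 4 anti-HA lists the background share lay inside the interval, so a difference of either sign was not detectable with 73 genes. With all adult lists cut to the 574 strongest regions, ΔM2-HA gave 8.22% (3.82 to 16.8) against 3.36% of other genes, and there the background lay below the interval.

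**Figure D1:**
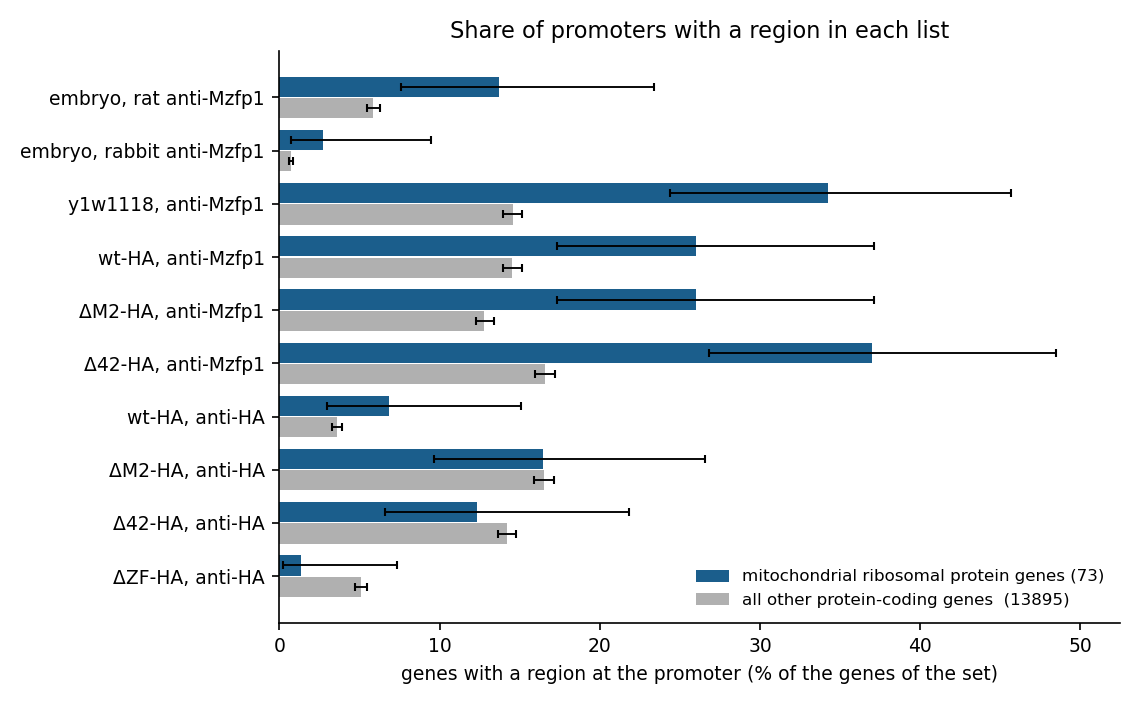
Share of promoters with a region, in percent of each set of genes (horizontal axis), in the 10 lists (rows), for the 73 mitochondrial ribosomal protein genes and the 13895 other protein-coding genes. Whiskers are 95% Wilson intervals. The blue bars exceed the grey ones in the 6 anti-Mzfp1 lists, from 2.74% against 0.712% to 37.0% against 16.6%, whereas the intervals of the 4 anti-HA lists include the grey bars.

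Over all lists, 36 of the 73 promoters were bound at least once (49.3%, 38.2 to 60.5) against 30.8% of other genes. In all 4 adult anti-Mzfp1 lists 17 were bound (23.3%, 15.1 to 34.2) against 10.4%. A region in a variant anti-HA list and in none of the other 7 lists was found at 6 promoters (8.22%, 3.82 to 16.8) against 11.1% of other genes. The remaining 37 promoters had no region in any list.

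Some promoters were found in most lists and others in few. Of the 36 bound promoters, 2 were found in 9 lists, 4 in 7 lists, 5 in 5 lists, 7 in 4 lists, 3 in 3 lists and 6 in 2 lists. A further 9 promoters were found in 1 list each, 4 of them in Δ42-HA with anti-Mzfp1, 2 in y1w1118 and 3 in a variant anti-HA list. Other genes were not counted by number of lists, so this spread is not called particular to these genes. The large-subunit names had 14 of 47 promoters bound in y1w1118 (29.8%, 18.7 to 44.0) and the small-subunit names 11 of 26 (42.3%, 25.5 to 61.1), and these intervals overlap. In mammals the orthologues of mRpS30 and mRpS18A belong to the large subunit despite their names.

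Where a promoter was bound, its region was ranked by the fold enrichment of ChIP over control, as a percentile among all regions of the list, 100 being the strongest. In y1w1118 adults the median percentile of the 25 bound promoters was 54.5 and that of other bound protein-coding genes 52.2, so these regions stood near the middle of the list. The medians were 67.6 against 52.9 with wt-HA, 70.6 against 55.4 with ΔM2-HA and 62.9 against 54.6 with Δ42-HA, all with anti-Mzfp1. With anti-HA they were 73.3 against 62.6 for wt-HA, 90.8 against 62.1 for ΔM2-HA and 87.8 against 66.0 for Δ42-HA. Single promoters nonetheless ranged from percentile 38.4 to 90.7 for wt-HA and from 29.4 to 99.3 for Δ42-HA. The order of these medians was not stable: with no neighbouring TSS it turned in y1w1118 (44.2 against 56.9), ΔM2-HA (54.4 against 56.9) and Δ42-HA (41.4 against 59.8) by anti-Mzfp1, and with lists of equal length for wt-HA by anti-Mzfp1 (44.4 against 48.5) and ΔM2-HA by anti-HA (48.7 against 66.8). The single ΔZF-HA region stood at percentile 30.3, where other bound genes had a median of 60.9. In embryos the medians were 56.5 against 50.5 for the rat (41.9 against 56.8 with no neighbouring TSS) and 45.9 against 62.0 for the rabbit antibody, the latter over 2 promoters.

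**Figure D2:**
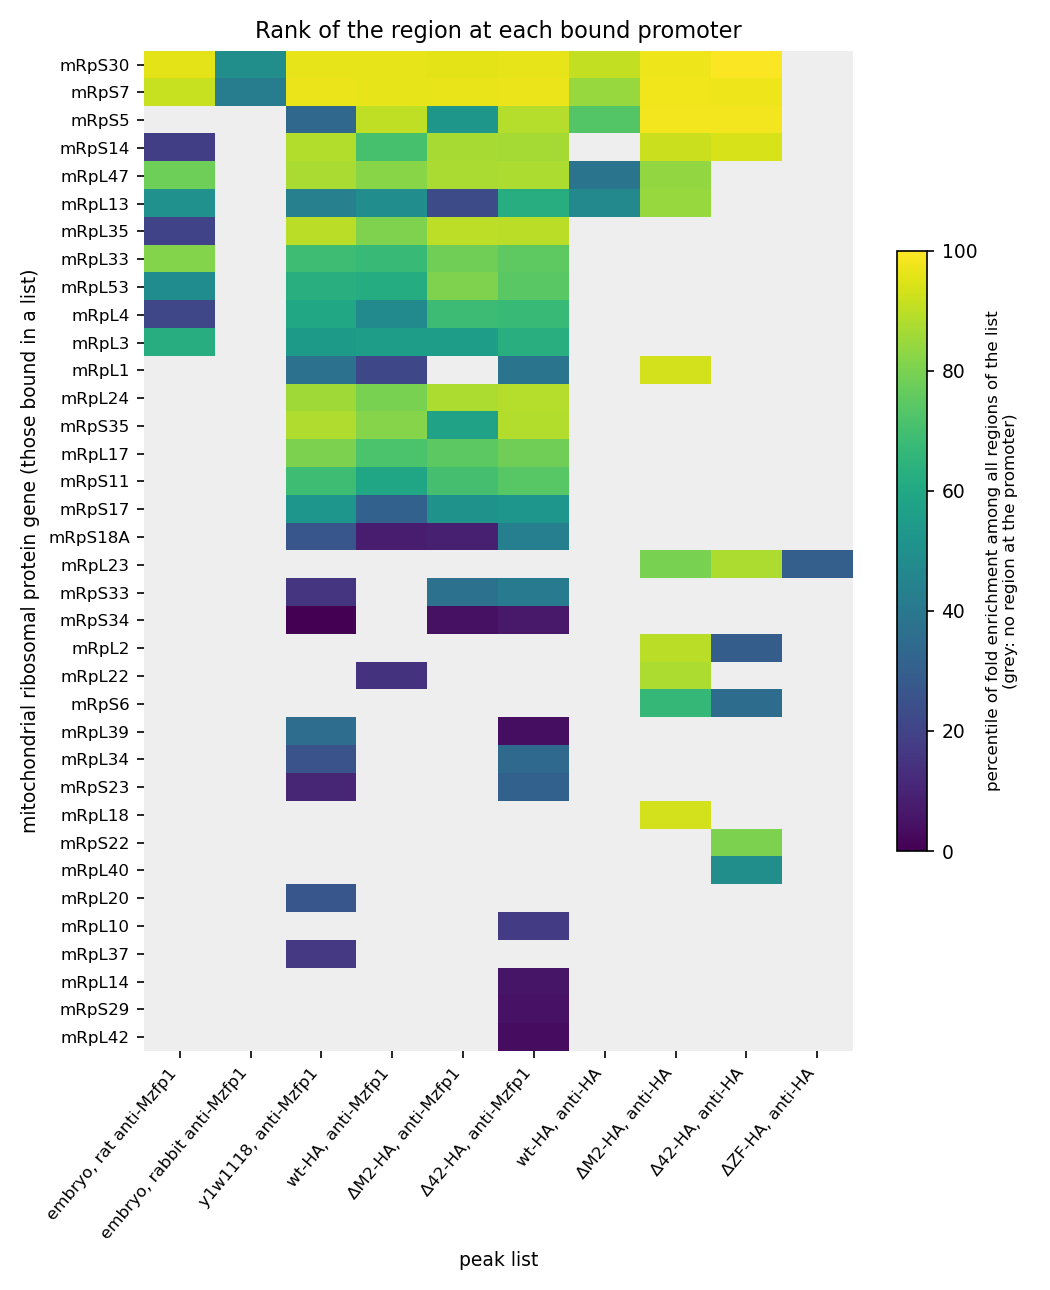
Percentile of fold enrichment among all regions of a list (colour) for the 36 bound mitochondrial ribosomal protein genes (rows, ordered by the number of lists) in the 10 lists (columns). Grey marks a promoter with no region. mRpS30 and mRpS7 stand high in all lists but those of rabbit antibody and ΔZF-HA. The promoters found only with tagged variants have colour only in the variant anti-HA columns, as their selection requires, and their rows lie among those of other promoters.

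Enrichment was concentrated in mRpS7 and mRpS30. mRpS7 (chromosome 2L, FBgn0032236) encodes a small-subunit protein whose bacterial homologue binds the ribosomal RNA. Its region had a fold enrichment of 60.1 in y1w1118 adults, 45.9 with wt-HA, 34.8 with ΔM2-HA and 54.7 with Δ42-HA by anti-Mzfp1. By anti-HA it was 21.1 for wt-HA, 13.2 for ΔM2-HA and 12.4 for Δ42-HA, and in embryos 8.47 with the rat and 5.45 with the rabbit antibody. It was absent from the ΔZF-HA list alone, and among all 1670 regions of y1w1118 adults it ranked 52nd.

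mRpS30 (chromosome X, FBgn0030692) had a fold enrichment of 48.7 in y1w1118 adults, 47.6 with wt-HA, 29.2 with ΔM2-HA and 44.3 with Δ42-HA by anti-Mzfp1. By anti-HA the values were 35.6 for wt-HA, 8.97 for ΔM2-HA and 52.1 for Δ42-HA, and in embryos 11.1 with the rat and 6.17 with the rabbit antibody. It too was missing from ΔZF-HA alone. The pair was found in the same 9 lists, and mRpS30 was the strongest mitochondrial ribosomal protein promoter in 5 of the 10 lists: both embryo lists, wt-HA with each antibody and Δ42-HA with anti-HA. mRpS7 was the strongest in y1w1118 and in ΔM2-HA and Δ42-HA with anti-Mzfp1. The enrichment of mRpS30 was lowest among the adult anti-HA lists for ΔM2-HA, although that list ranked it at percentile 97.4.

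The next promoters had 10.9-fold enrichment or less in y1w1118. The region of mRpL35, whose bacterial homologue is a large-subunit protein, had 10.9-fold enrichment in y1w1118, 6.27 with wt-HA, 7.74 with ΔM2-HA and 11.0 with Δ42-HA, and 2.68 in embryos with the rat antibody. mRpS14, a conserved small-subunit protein, had 9.92, 4.79, 6.51 and 9.11 in the same 4 adult lists and 2.64 in embryos, and anti-HA found it with ΔM2-HA (4.48) and Δ42-HA (5.06) but not with wt-HA. mRpS35 had 9.80, 6.84, 3.30 and 10.2 in the 4 adult anti-Mzfp1 lists and was found in no other. At each of these 3 promoters, y1w1118 and Δ42-HA gave the higher pair of anti-Mzfp1 values. The same held at mRpS7, mRpL47, mRpL24, mRpL17, mRpS11 and mRpL33, though not at mRpS30. It held for the background too. The median enrichment of other bound protein-coding genes was 3.73 in y1w1118 and 3.69 with Δ42-HA, against 3.53 with wt-HA and 3.23 with ΔM2-HA. The order is therefore not particular to these promoters.

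mRpL47 had 9.42, 6.90, 6.58 and 9.61 in the 4 adult anti-Mzfp1 lists, in the same order, 5.38 in embryos with the rat antibody, and 3.01 for wt-HA and 3.77 for ΔM2-HA by anti-HA. mRpL24 had 8.44, 6.19, 6.74 and 10.3 in the 4 adult anti-Mzfp1 lists, and mRpL17 had 6.82, 4.95, 4.40 and 6.36. Both were found in those 4 lists alone. mRpS11 had 5.09, 3.92, 4.06 and 5.53 and followed the same pattern, and mRpL33 had 5.08, 4.50, 4.86 and 5.72 with 5.87 in embryos. These 10 genes had the highest enrichment in y1w1118, and all 10 were bound in each of the 4 adult anti-Mzfp1 lists. The other 15 promoters bound in y1w1118 had enrichments of 4.46 down to 1.69, the lowest being mRpS34, whose region ranked 1669th of 1670.

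**Figure D3:**
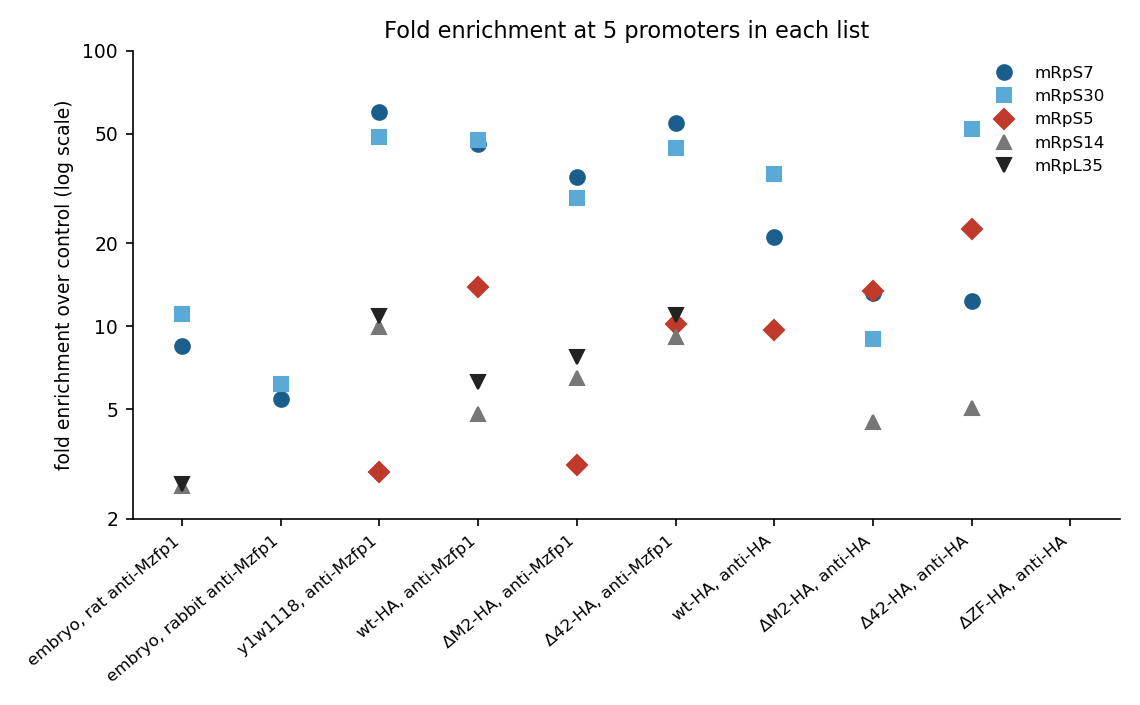
Fold enrichment over control (vertical axis, log scale) at 5 promoters in the 10 lists (horizontal axis), with 1 value per list and therefore no error bar. A promoter without a symbol in a list had no region there. mRpS7 and mRpS30 stand above the others in the anti-Mzfp1 lists, and mRpS5 lies at 2.95 and 3.13 in y1w1118 and ΔM2-HA but between 9.71 and 22.6 in the other lists that hold it.

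mRpS5 differed from the rest in position and in pattern. It was the 1 gene of the 73 in the pericentromeric heterochromatin as the study delimits it (chromosome 3L, FBgn0287187), where 155 other protein-coding genes lie, and no other TSS lay within 500 bp of its own. Its enrichment by anti-Mzfp1 was 2.95 in y1w1118, 13.9 with wt-HA, 3.13 with ΔM2-HA and 10.2 with Δ42-HA. By anti-HA it was 9.71 for wt-HA, 13.4 for ΔM2-HA and 22.6 for Δ42-HA, and neither embryo list nor ΔZF-HA held it. The region was 579 bp wide in y1w1118 and 523 bp with ΔM2-HA by anti-Mzfp1, and between 911 and 1902 bp in the other 5 lists. Its percentile was 34.0 in y1w1118 and 90.3 with wt-HA, whereas the enrichment of mRpS7 and mRpS30 was no higher with wt-HA than in y1w1118. With ΔM2-HA mRpS5 was the most enriched mitochondrial ribosomal protein promoter by anti-HA, at percentile 98.1, yet at percentile 53.0 by anti-Mzfp1 in the same flies.

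By the rule that picked them, 6 promoters were found in a variant anti-HA list and in none of the other 7 lists. They made up 8.22% of the 73, against 11.1% of other genes. mRpL2, whose homologues lie by the peptidyl transferase centre, had 4.20-fold enrichment with ΔM2-HA and 2.74 with Δ42-HA. mRpL23, a protein of the exit tunnel rim, had 3.59 with ΔM2-HA, 4.08 with Δ42-HA and 2.33 with ΔZF-HA, and was the only promoter of the 73 in the ΔZF-HA list. mRpS6 had 3.21 with ΔM2-HA and 2.80 with Δ42-HA. The remaining 3 were found once: mRpL18 at 4.66 with ΔM2-HA, and mRpS22 at 3.64 and mRpL40 at 2.97 with Δ42-HA. None of these values exceeded 4.66, although mRpL18 stood at percentile 93.1 of the 6245 regions with ΔM2-HA. Many of these regions lay beside the TSS. At mRpL23 the gap to the TSS was 199 bp for ΔM2-HA and 162 bp for ΔZF-HA. At mRpS6 it was 114 bp for ΔM2-HA and 191 bp for Δ42-HA. With Δ42-HA it was 122 bp at mRpL40 and 73 bp at mRpS22. The regions of mRpL2 and mRpL18, and that of mRpL23 with Δ42-HA, covered a TSS. With the summit required inside the window, mRpL2 was still found in 2 lists. Under that setting mRpL18, mRpL23, mRpS6, mRpS22 and mRpL40 were found in none.

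The anti-HA lists shared part of their promoters. All 5 promoters of wt-HA by anti-HA (mRpS7, mRpS30, mRpS5, mRpL13 and mRpL47) were found again with ΔM2-HA, where they made up 41.7% of its 12, and among other genes 86.9% of the wt-HA promoters were found again and made up 18.8%. Of the 5, 3 were found with Δ42-HA and none with ΔZF-HA, where the shares among other genes were 84.1% and 31.5%. Within the same flies, 6 promoters were shared by the 19 of anti-Mzfp1 and the 12 of anti-HA with ΔM2-HA, that is 31.6% of the former and 50.0% of the latter, against 52.0% and 40.4% for other genes. For Δ42-HA the shared number was 4, which was 14.8% of 27 and 44.4% of 9, against 38.9% and 45.5%.

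Most of these promoters had a close neighbour. Another gene had a TSS within 500 bp at 54 of the 73 (74.0%) against 34.2% of other protein-coding genes. The nearest such TSS pointed away on the other strand at 52 of the 73 genes (71.2%), against 26.9% of other genes, and a single TSS was annotated for 91.8% of them against 73.4%. The pairs include mRpS7 with the mitotic kinase gene Cdk1, mRpS30 with Paf-AHalpha, mRpL35 with Mitofilin, which shapes the cristae, mRpS14 with Naa15-16 and mRpL17 with Tudor-SN. A region between such starts cannot be assigned to 1 of the 2 genes.

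The split by neighbours changed the background in most lists, though not in the same direction in all: in ΔZF-HA 4.13% of other genes with a neighbour were bound and 5.58% of those without. In y1w1118, 19 of the 54 promoters with a neighbour were bound (35.2%, 23.8 to 48.5), and so were 26.1% of the other genes with a neighbour, a share inside that interval. Of the 19 promoters without a neighbour 6 were bound (31.6%, 15.4 to 54.0), against 8.56% of other such genes. Not all 6 summits lay at the gene's own start. The summit of mRpS35 was 1297 bp from its TSS and 59 bp from that of Pgant6. That of mRpS34 was 273 bp from its TSS, and its region ranked 1669th of 1670. With Δ42-HA by anti-Mzfp1 the shares were 33.3% against 29.6% with a neighbour, and 47.4% (27.3 to 68.3) against 9.86% without. Among genes with a neighbour, the background share lay inside the interval in 9 of the 10 lists, the exception being the rabbit list with 2 promoters. Among genes without a neighbour it lay below the interval in 3 lists: y1w1118, ΔM2-HA and Δ42-HA with anti-Mzfp1.

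**Figure D4:**
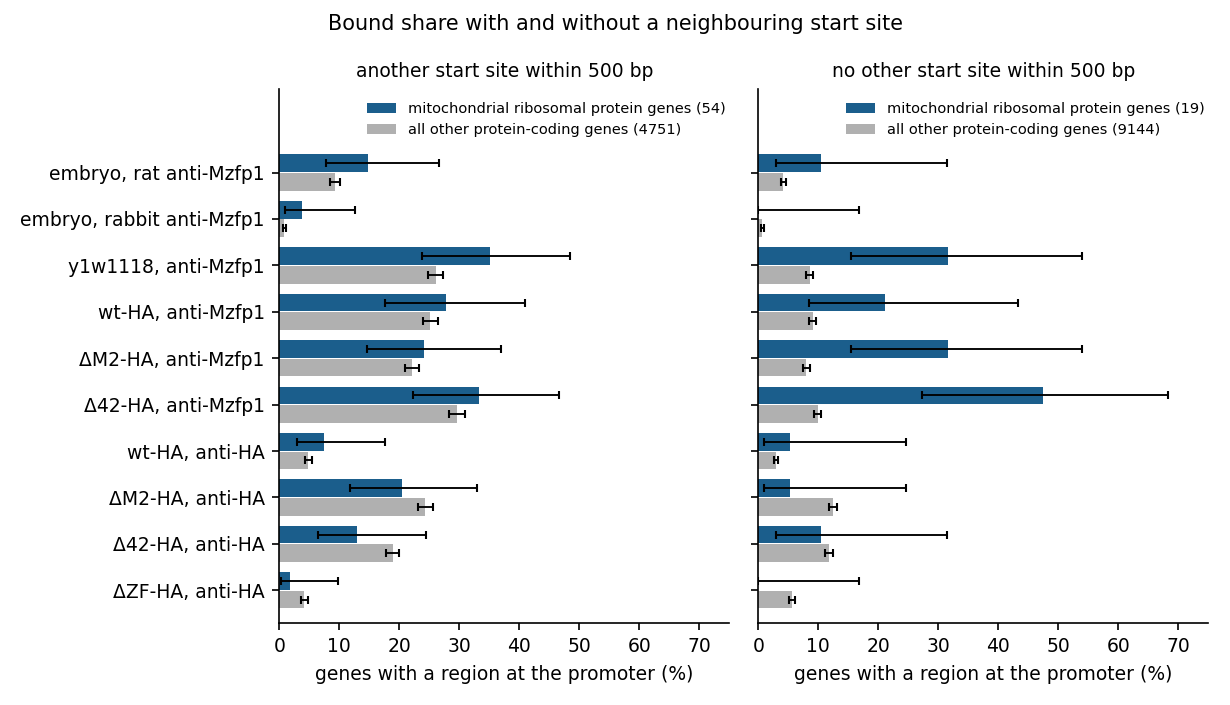
Share of promoters with a region in percent (horizontal axes) in the 10 lists (rows), for genes with another TSS within 500 bp (left) and without (right). Bars are the mitochondrial ribosomal protein genes and all other protein-coding genes, and whiskers are 95% Wilson intervals. On the left the 2 bars lie close, as with 35.2% against 26.1% in y1w1118, and on the right 31.6% stands against 8.56%.

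The distance from summit to start site differed between lists. In y1w1118 the 25 promoters had 25 separate regions, with a median distance of 60.0 bp from the summit to the nearest TSS of the gene and a range of 2 to 1297 bp. The summit was inside the 200 bp window at 17, nearer to the gene's own TSS at 14, nearer to that of another gene at 9 and equally near at 2. By anti-HA the median distance was 248 bp for Δ42-HA, with 4 of 9 summits inside the window, and 88.0 bp for ΔM2-HA, with 7 of 12 inside and 8 of 12 nearer to another gene's TSS. In y1w1118 the regions had a median width of 747 bp against 495.5 bp for all regions of the list. At mRpS30 the summit was 3 bp upstream of the TSS and 461 bp from that of Paf-AHalpha. At mRpS7 it lay 378 bp upstream and 22 bp from the TSS of Cdk1 in y1w1118, but 38 bp upstream of mRpS7 with wt-HA and 9 bp upstream with wt-HA by anti-HA. The region of mRpS7 was 2510 bp wide in y1w1118 and covered both starts, and the lists placed its summit at one or the other.

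Other summits also favoured the partner gene. At mRpL35 the summit lay 394 bp upstream and 59 bp from the TSS of Mitofilin, at mRpL17 365 bp upstream and 34 bp from that of Tudor-SN, and at mRpL24 196 bp upstream and 22 bp from that of betaggt-I. At mRpS35 it lay 1297 bp downstream of the TSS and 59 bp from that of Pgant6, and with ΔM2-HA by anti-Mzfp1 it lay 17 bp downstream of the mRpS35 TSS instead. That list also gave mRpS35 its lowest enrichment, 3.30. Near the edge of the window, the region of mRpS6 in Δ42-HA by anti-HA was counted with a gap of 191 bp to the TSS, whereas the regions at mRpS2 in the same list and at mRpL11 in y1w1118 were not, with gaps of 204 and 205 bp. Over all lists the region covered a TSS in 115 of the 129 cases.

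The 37 promoters without a region included those of mRpL12, whose bacterial homologue is the stalk protein that recruits translation factors, mRpL11, whose homologue lies at the base of that stalk, mRpS9 and mRpL32. Regions within 500 bp but outside the window were found at 13 of the 73 genes in a list that did not bind them. The strongest of these was at mRpL55 with Δ42-HA by anti-HA, at 4.58-fold and 392 bp from the TSS. The 3 regions near mRpL11 had between 2.04 and 2.28-fold enrichment.

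The matrix built from the other regions matched promoters with and without Mzfp1. It was made here and was not compared with the motif that the study reports. The word TATCGATA, the core of the DNA replication-related element, was found within 100 bp of the summit in 83 of the 500 training regions and in 3 of 1000 flanking windows. In the 401 bp around the most upstream TSS of each gene, and on either strand, a matrix match at a rate of 1 in 10000 genome positions was found at 19 of the 73 promoters (26.0%, 17.3 to 37.1) against 15.3% of other genes. Among other genes 41.1% of the promoters bound in y1w1118 held a match and 10.9% of those not bound, but the matrix was trained on y1w1118 regions at such genes and not at the 73, so these shares are not set against those of the 73. Among mitochondrial ribosomal protein genes the shares were 32.0% of the 25 bound and 22.9% of the 48 not bound. The exact word was found at 20.5% of the 73 and 9.06% of other promoters. The word GGTCACAC, looked up after the summits had been read, was found at 9 of the 73 (12.3%) and at 7.86% of other promoters. It was found at 2 of the 25 bound in y1w1118 (8.0%) and at 7 of the 48 not bound (14.6%). Among other genes these shares were 11.7% and 7.20%.

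The next matches to the matrix come from promoters with and without a region. Those of mRpL4 and mRpS23 were bound in y1w1118 at 4.23 and 2.24-fold. That of mRpL32 had the highest score of the 73 and no region in any list. The matches of mRpS23 and mRpL32 hold the exact word TATCGATA, and that of mRpL4 holds AATCGATA instead. Each line gives the match in capitals with 5 bases on either side, on the strand of the gene, from the same RefSeq genome.
mRpL4 (chr2L:16329139-16329163): tcaccAAGTAATCGATATACggcgt
mRpS23 (chr2L:13835066-13835090): ctctgATGGTATCGATAGGCaccgg
mRpL32 (chr3R:31252837-31252861): tataaACATATCGATAGCACagctg

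The centre of the match was 19 bp upstream of the TSS at mRpL4, 6 bp at mRpS23 and 23 bp at mRpL32. In y1w1118 it was 4 bp from the summit at mRpS23 and 29 bp from it at mRpL4. Of the 19 matched promoters, 18 had a match within 100 bp of the TSS (94.7%), against 83.8% of matched promoters of other genes. Of the 10 promoters with the highest enrichment in y1w1118, mRpL47 and mRpL17 held a match and the other 8 did not.

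**Figure D5:**
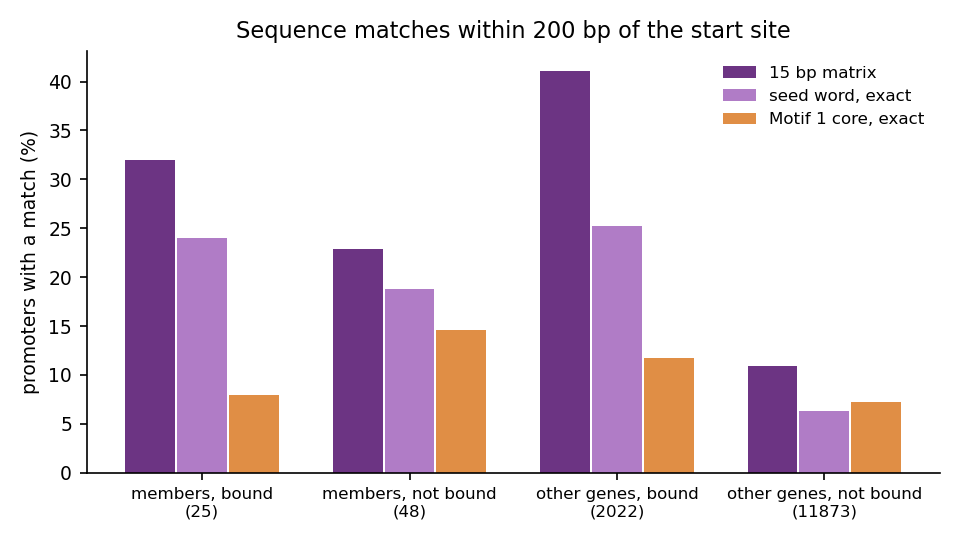
Share of promoters in percent (vertical axis) with a match to the 15 bp matrix, with the exact seed word and with the exact Motif 1 core, for mitochondrial ribosomal protein genes (members) and other protein-coding genes, each divided by binding in y1w1118 adults (numbers of genes in brackets). The matrix bars are 32.0% and 22.9% for members and 41.1% and 10.9% for other genes. The matrix and its seed word came from y1w1118 regions away from member promoters, so their bars are not compared between members and other genes.

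Other genes of mitochondrial translation and gene expression were counted in the same way. The list held 43 genes: translation factors, aminoacyl-tRNA synthetases and related proteins, and genes of mitochondrial gene expression such as TFAM and PolrMT. Of these 42 were matched by symbol, and 7 were bound in y1w1118 (16.7%, 8.32 to 30.6), a share near the background of 14.6%. The interval overlaps that of the mitochondrial ribosomal protein genes. The 5 strongest were AlaRS-m at 6.84-fold, tko at 5.60, TyrRS-m at 4.16, mEFTs at 3.89 and mIF2 at 3.73. tko encodes the mitochondrial ribosomal protein S12 under another name and was found in embryos with the rat antibody (3.85) and in all 4 adult anti-Mzfp1 lists. With ΔM2-HA by anti-HA 10 of the 42 were bound (23.8%, 13.5 to 38.5), where the background of 16.5% lay inside the interval.

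Among gene sets of like function, 56 of 92 cytoplasmic ribosomal protein genes were bound in y1w1118 (60.9%, 50.7 to 70.2), and this interval does not overlap that of the mitochondrial ribosomal protein genes. Genes of the oxidative phosphorylation complexes, taken by symbol (ND-, COX, UQCR-, ATPsyn or Sdh), had 20 of 88 bound (22.7%, 15.2 to 32.5), an interval that does overlap. With anti-HA for Δ42-HA the cytoplasmic set had 39 of 92 bound (42.4%) and the oxidative phosphorylation set 19 of 88 (21.6%), where the mitochondrial ribosomal protein genes had 12.3%.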

How the data were processed

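Reads were trimmed (cutadapt, sickle) by the authors, who aligned them to dm6 with bowtie2 (adults, paired-end) or bowtie (embryos, single-end) and removed duplicate, non-unique and blacklisted reads. Peaks were called with MACS2 against preimmune controls at p 0.01 (adults) or 1e-05 (embryos). Adult calls of 2 libraries were joined by irreproducible discovery rate (IDR) at 0.05 for replicates and 0.01 for pseudoreplicates. In the deposited lists the largest IDR was near 0.05 for y1w1118 and Δ42-HA by anti-Mzfp1 and for ΔZF-HA, and near 0.01 in the other adult lists. The deposited values are a ratio, the fold enrichment of a region over its control, the −log10 p-value of a region, its summit, and in adult lists a score, the −log10 of the IDR. Fold enrichment is a value of the authors' peak caller against its own control, so it was ranked within lists and set side by side between them without a test. A further 64 columns, which describe the inputs to IDR, were left out, since the files do not say which library each came from.

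TSSs came from Ensembl release 115 (18277 genes on chromosomes) and sequences from RefSeq Release 6, whose chromosome lengths match dm6. The matrix was refined in 10 rounds on 500 y1w1118 regions of highest fold enrichment at none of the 73 promoters. Overlap and matrix steps were tested on simulated data (Python 3.11.15, numpy 2.4.6, pandas 2.3.3, scipy 1.17.1). Genes were named by fixed rules. These were the 10 with the highest fold enrichment in y1w1118, those in at least 8 lists and the 5 highest percentiles among genes found with tagged variants alone. The rules also took the highest gene in each list, heterochromatic genes, and the 5 highest other genes of mitochondrial translation and gene expression. Further genes were chosen after their values were seen. The genes, lists and rules were chosen with earlier results of these data known. Alternatives varied the window, the overlap, the TSS, list length, IDR limit, neighbours and match threshold.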

Additional observations from a re-analysis of the deposited data

How the results depend on the processing

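No paired analysis was possible because each group has 1 deposited list joined over its libraries, so leaving out a library was not done either. Over 9 alternative settings the share of bound mitochondrial ribosomal protein promoters stayed above that of other genes in the 4 adult anti-Mzfp1 lists and for wt-HA by anti-HA (9 of 9 settings each) and in embryos with the rat antibody (8 of 8). With the rabbit antibody it did in 6 of 7, the exception being genes without a neighbour (0% against 0.678%). With anti-HA it did in 5 of 9 for ΔM2-HA, 3 of 9 for Δ42-HA and 0 of 9 for ΔZF-HA, so no direction is given there.

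Of 169 values under an alternative, 143 stayed within tolerance, which was the Wilson interval for a share and the 95% order-statistic interval of the median (the range in small sets) for a median percentile. The median percentile exceeded that of other genes in 4 of 8 settings for the rat list, 7 of 9 for y1w1118 and Δ42-HA by anti-Mzfp1, 8 of 9 for wt-HA and ΔM2-HA by anti-Mzfp1 and ΔM2-HA by anti-HA, and 9 of 9 for wt-HA and Δ42-HA by anti-HA, and in none for the rabbit (0 of 6) and ΔZF-HA (0 of 3) lists. Requiring the summit inside the window gave 23.3% in y1w1118 against a background of 11.3%. By anti-HA this setting gave 9.59% for ΔM2-HA (background 9.27%), 5.48% for Δ42-HA (6.64%) and 0% for ΔZF-HA (2.47%). A 100 bp window and a 100 bp overlap also gave 0% for ΔZF-HA, against backgrounds of 3.97% and 3.99%. The upper part of each list by fold enrichment gave 19.2% in y1w1118 (background 7.61%), 21.9% for Δ42-HA by anti-Mzfp1 (9.11%) and 0% for ΔZF-HA (3.02%). Median percentiles were then 3.28 against 58.2 for the rabbit list and 81.5 against 66.6 for ΔM2-HA by anti-HA. Lists cut to 574 regions gave 13.7% in y1w1118 and wt-HA, 15.1% for ΔM2-HA and 16.4% for Δ42-HA by anti-Mzfp1, with background shares of 5.08% to 5.25%, and by anti-HA 8.22% for ΔM2-HA (background 3.36%), 5.48% for Δ42-HA (3.34%) and 0% for ΔZF-HA (1.06%). Median percentiles were then 44.4 against 48.5 for wt-HA by anti-Mzfp1 and 48.7 against 66.8 for ΔM2-HA by anti-HA, below those of other genes. At 500 bp the order also turned in y1w1118 (43.7 against 51.5) and Δ42-HA by anti-Mzfp1 (52.5 against 53.5). An IDR limit of 0.01 moved the ΔZF-HA percentile to 5.84. By anti-HA, genes without a neighbour gave 5.26% for ΔM2-HA (background 12.4%, median percentile 98.1, 1 gene) and 0% for ΔZF-HA (background 5.58%). At 1 in 1000 positions the matrix matched 61.6% of the 73 promoters against 42.7% of others. The causes were not tested beyond the shorter lists and smaller gene sets these settings use. With 73 genes and unknown read depth, differences of a few percentage points were not detectable.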
